A study of Mus musculus with 6 samples.

Results

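The genes described here are 10 mouse genes of MHC class II antigen presentation: Cd74, the class II chain genes H2-Aa, H2-Ab1 and H2-Eb1, the peptide-editing genes H2-DMa, H2-DMb1, H2-DMb2, H2-Oa and H2-Ob, and the coactivator gene Ciita. They were taken by gene name from a table of 55840 genes, and all 10 were among the 14919 genes that passed the filter on low counts. The list counts as selected on the measured difference between Exon2KO and WT, because the counts and fold changes of that contrast were known when it was drawn up, so the fold changes and calls of these 10 genes describe the libraries and are not independent evidence. RNA was sequenced from mouse regulatory T cells (Tregs) of spleen and lymph nodes, a CD4 lineage whose identity rests on Foxp3. Wild-type cells (WT, 3 libraries) were compared with cells labelled Exon2KO (3 libraries), whose allele the series title calls Foxp3∆2, a Foxp3 gene lacking exon 2. Strain, sex, age, sorting gate and the way the deletion was made are not given in the labels used here. The titles call the replicates biological but do not say whether they were separate animals, so p-values measure the spread between these samples. Libraries are named by genotype and by the number in their column name, such as WT 20.

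MHC class II molecules are pairs of an alpha and a beta chain that carry peptides from endosomes to the cell surface, where CD4 T cells read them. The invariant chain CD74 holds new pairs together, blocks their peptide groove and steers them to endosomes; there DM exchanges its last fragment for peptide, and DO restrains DM. CIITA does not bind DNA itself but switches these genes on together, through factors seated on a promoter module with an X box (bound by RFX) and a Y box (bound by NF-Y). B cells, dendritic cells and macrophages are the main class II cells of lymphoid tissue, and mouse T cells make little.

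The promoter module is shown for 5 genes, because it is what ties the list to Ciita. Promoter windows, from 250 bases before to 50 after the gene start (RefSeq, GRCm38.p6), were found for 7 of the 10 genes. No window was found for Cd74, H2-Ab1 or Ciita, so their promoters were not read. The Y box core TGATTGG lay in the windows of 6 of them, and in 7.82% of all 32851 windows on either strand. Upstream of it, on the same strand, lay the X box pattern AACNNNTGANG in 4 genes (2.88% of all windows, either strand), GCAAC in 4 (35.2%), or both; the letters were chosen after reading these windows. The stretch of H2-DMb1 is not shown because 44 of its bases lie in annotated exons; that of H2-Oa has 1 such base and the other 4 have 0. Capitals mark the matches, the X part on the left and the Y part on the right.
H2-Aa, minus strand, chr17:34287859-34287912: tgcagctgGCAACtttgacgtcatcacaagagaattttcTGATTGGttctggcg
H2-Eb1, plus strand, chr17:34305768-34305820: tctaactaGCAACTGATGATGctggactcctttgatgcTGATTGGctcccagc
H2-Ob, plus strand, chr17:34238810-34238860: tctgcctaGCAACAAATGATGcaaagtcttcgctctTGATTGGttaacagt
H2-Oa, plus strand, chr17:34092295-34092340: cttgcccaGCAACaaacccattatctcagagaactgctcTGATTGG
H2-DMb2, plus strand, chr17:34145120-34145171: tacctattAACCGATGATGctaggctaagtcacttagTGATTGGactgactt
The X part began 28 to 31 bases before the Y part in these genes and in H2-DMb1. In H2-DMb1 the Y part started 63 bases before the gene start, and in H2-Aa 50 bases before it. The 2 windows of H2-DMa held no match to TGATTGG or AACNNNTGANG, and 1 of them held GCAAC. A match is a description of letters, and neither a measured binding site nor a cause of any change.

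Total counts ran from 17998216 to 21003496 per library. Levels are given as CPM, counts per 1000000 counts of the TMM-scaled library size, and 3 counts, taken as the smallest level a library can show, equal 0.141 to 0.169 CPM; this covers counting error only. Foxp3, the edited gene, had 712 ± 96.5 CPM in WT and 812 ± 121 CPM in Exon2KO (SD, n = 3 each); counts per gene do not show exon 2, so the labels could not be checked from it. The libraries numbered 20 stood apart from the others on the first principal component (33.2% of the variance) in both genotypes. Libraries with the same number deviated together, so fits with that number as a replicate block are given for the genes named where they change a call.

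Cd74, the gene of the invariant chain, fell in Exon2KO Tregs to 43.0% of its WT level, and it was the only one of the 10 genes that the edgeR fit called. The libraries WT 2, 6 and 20 gave 1790, 1901 and 2228 counts; Exon2KO 2, 6 and 20 gave 759, 859 and 800. On the TMM-scaled library size these are 96.1, 104.7 and 104.5 CPM against 42.2, 44.1 and 45.0 CPM. Every Exon2KO library lay far below every WT library, and the libraries within a genotype lay close together. Means were 102 ± 4.91 CPM and 43.8 ± 1.44 CPM (SD, n = 3 each). On the log2 scale the difference was -1.22 with an SE of 0.08, at an adjusted p of 0.000241 by edgeR's quasi-likelihood test. Across all tested genes 2.33% were called at an adjusted p under 0.05, and 1.58% were called lower in Exon2KO. By p-value Cd74 ranked 2 among the 348 called genes, while 104 of the 235 genes called lower had a larger fall. Within the pairs of libraries that share a number the log2 ratio was -1.19, -1.25 and -1.22. The authors' deposited table also lists Cd74 at -1.22. Cd74 (ENSMUSG00000024610) lies on the plus strand of chromosome 18, from 60803848 to 60812652 in the deposited coordinates (build mm10).

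**Figure D1:**
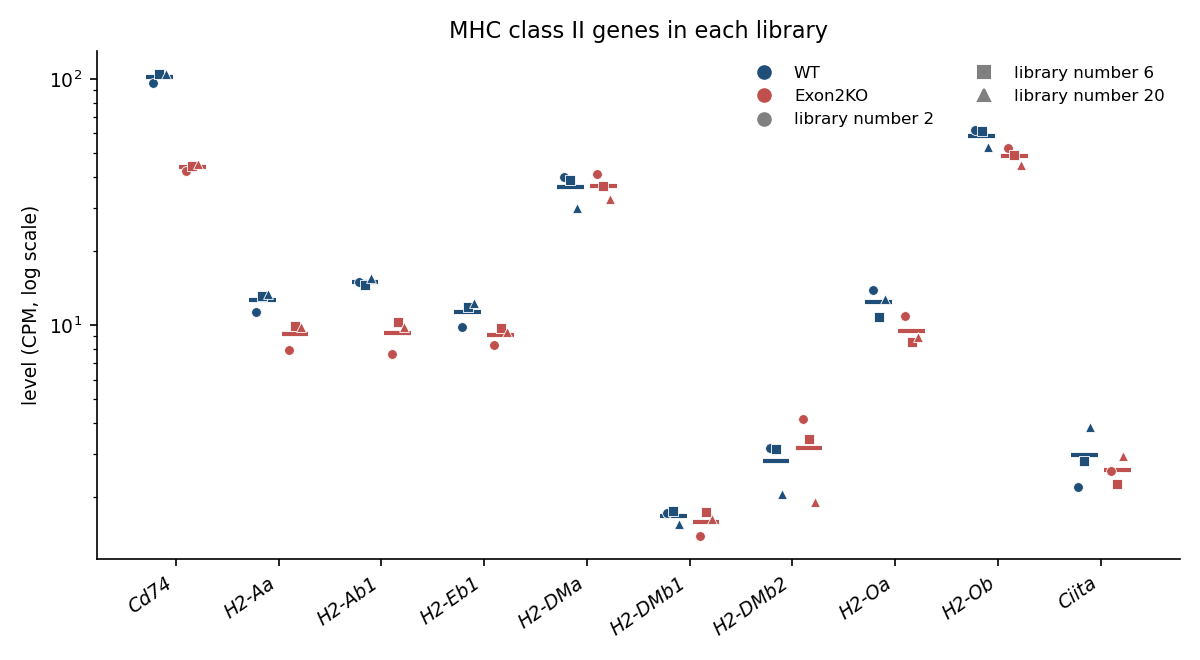
Level of each of the 10 genes in each library, in CPM on a log axis; blue is WT, red is Exon2KO, the symbol gives the library number and the short line the mean of 3 libraries. Cd74 lies between 96.1 and 104.7 CPM in WT and between 42.2 and 45.0 CPM in Exon2KO, while H2-DMa, H2-DMb1, H2-DMb2, H2-Oa and Ciita overlap between the genotypes.

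The classical chain genes were all lower in Exon2KO without overlap, by less than Cd74, and none was called by edgeR. H2-Ab1, which encodes the beta chain of I-A, gave 278, 263 and 332 counts in the WT libraries against 137, 201 and 174 in the Exon2KO libraries. That is 14.9, 14.5 and 15.6 CPM against 7.61, 10.3 and 9.79 CPM, and Exon2KO 2 was the lowest library. Its log2 fold change of -0.70 (SE 0.16) missed the threshold, at an edgeR adjusted p of 0.0559. H2-Ab1 passed with the replicate block (edgeR adjusted p = 0.00328), with DESeq2 (adjusted p = 0.00936) and without the count filter (edgeR adjusted p = 0.0132), and the authors' deposited table gives it 0.00927. It passed in none of the 6 edgeR fits that left 1 library out, which gave adjusted p-values from 0.0695 to 0.213.

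H2-Aa, the alpha chain of I-A, gave 211, 239 and 286 counts in the WT libraries against 142, 194 and 175 in the Exon2KO libraries. Levels were 12.6 ± 1.14 CPM and 9.23 ± 1.16 CPM (SD, n = 3 each). The log2 difference of -0.45 (SE 0.16) had an edgeR adjusted p of 0.248, and of 0.0422 with the replicate block. H2-Eb1, the beta chain of I-E, gave 182, 214 and 261 counts in the WT libraries against 149, 189 and 166 in the Exon2KO libraries. The highest Exon2KO library (9.69 CPM) came close to the lowest WT library (9.77 CPM). Its log2 difference of -0.31 (SE 0.16) had an edgeR adjusted p of 0.523, and of 0.21 with the block. The alpha chain partner of I-E is listed as the pseudogene H2-Ea-ps, with 0 counts in all 6 libraries, which allows up to 3 counts in each. H2-Aa and H2-Eb1 were lowest in the library numbered 2 in both genotypes.

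None of the peptide editors was called by edgeR, and they were not tested as a group. H2-DMa, the DM alpha chain, had 40.1, 38.8 and 29.7 CPM in the WT libraries and 41.1, 36.7 and 32.4 CPM in the Exon2KO libraries. The genotypes overlapped. The log2 difference of 0.02 (SE 0.14) had an edgeR adjusted p of 0.981, and its sign turned when WT 20, Exon2KO 2 or both libraries numbered 20 were left out. The DM beta chain genes were scarce: H2-DMb1 had 25 to 34 counts and H2-DMb2 34 to 75 counts per library. Their log2 fold changes were -0.08 (SE 0.30) for H2-DMb1 and 0.19 (SE 0.34) for H2-DMb2, and both signs turned without Exon2KO 2 (0.0066 and -0.058). A change of either beta chain gene would need to be several times these errors to be called. H2-Ab1, at -0.70 with an SE of 0.16, was not called by edgeR. Of the 50-base words of the longest H2-DMb1 transcript, 27.2% occur in H2-DMb2, so how reads divide between these genes is uncertain.

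The DO genes were nearer to the chain genes. H2-Ob, the DO beta chain, gave 1157, 1118 and 1121 counts in the WT libraries against 942, 952 and 790 in the Exon2KO libraries. Levels were 58.8 ± 5.35 CPM and 48.5 ± 3.96 CPM (SD, n = 3 each) and did not overlap, by a narrow margin (52.6 CPM in WT 20, 52.3 CPM in Exon2KO 2). The log2 difference of -0.28 (SE 0.10) had an edgeR adjusted p of 0.252, and of 0.0194 with the replicate block. H2-Oa, the DO alpha chain, had 13.9, 10.8 and 12.7 CPM in the WT libraries and 10.9, 8.52 and 8.95 CPM in the Exon2KO libraries, with overlap. Its log2 difference of -0.40 (SE 0.17) had an edgeR adjusted p of 0.363, and of 0.0774 with the block.

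Ciita, the coactivator, was near the bottom of the range. It gave 41, 51 and 82 counts in the WT libraries against 46, 44 and 52 in the Exon2KO libraries, or 2.95 ± 0.832 CPM and 2.58 ± 0.335 CPM (SD, n = 3 each). The genotypes overlapped and WT 20 was the highest library. The log2 difference of -0.20 (SE 0.29) had an edgeR adjusted p of 0.891, and became 0.041 without WT 20.

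As a list, 8 of the 10 genes had a negative log2 fold change, beside 48.2% of all tested genes. The median of the 9 genes other than Cd74 was -0.28, beside 0.0084 over all tested genes, and it ran from -0.32 to -0.24 over the 15 other fits. Groups did not overlap, with Exon2KO lower, for 5 of the 10 genes: Cd74, H2-Aa, H2-Ab1, H2-Eb1 and H2-Ob. Over all tested genes that share was 9.32%. With the replicate block 4 of the 10 were called lower (Cd74, H2-Ab1, H2-Aa and H2-Ob), where the block called 5.79% of all tested genes lower. The list was put together with this contrast known, so nothing is read from these shares.

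**Figure D2:**
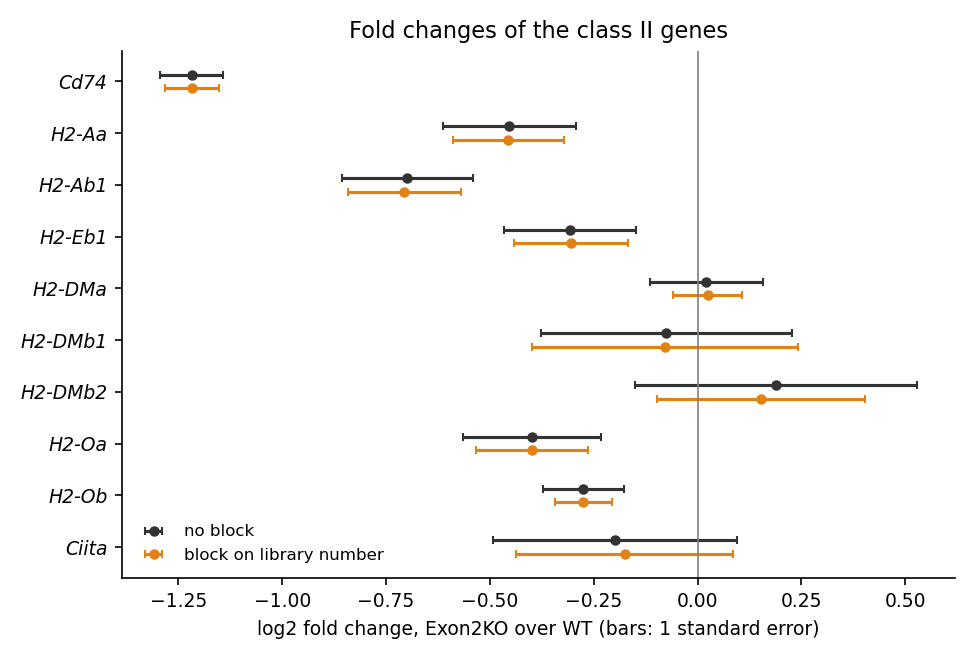
Log2 fold change of Exon2KO over WT for each gene with 1 standard error, without a block (black) and with the library number as a block (orange). Cd74 lies at -1.22 in both fits, and H2-Ab1, at -0.70 and -0.71, is the next lowest.

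Levels between genes were compared as CPM per kilobase (CPM per kb), the CPM divided by the deposited gene length. That length exceeds the longest transcript unevenly, with 3798 against 1128 bases for H2-Aa and 1679 against 1410 for Cd74. The order of the genes and the ratios between them depend on the length used, and transcript lengths were not tried. In WT, Cd74 stood first at 60.6 ± 2.93 CPM per kb (SD, n = 3, as for all levels in this order). H2-Ob (10.9 ± 0.994), H2-DMa (10.5 ± 1.63) and H2-Oa (8.85 ± 1.10) followed and were not separated beyond their spread. H2-Ab1 (5.84 ± 0.214) and H2-Eb1 (5.80 ± 0.677) overlapped too. Below them came H2-Aa (3.33 ± 0.300), H2-DMb2 (1.60 ± 0.360), H2-DMb1 (0.997 ± 0.0672) and Ciita (0.310 ± 0.0873), each below every WT library of the gene before. In Exon2KO, Cd74 was still first, at 26.1 ± 0.859 CPM per kb, followed by H2-DMa (10.6 ± 1.27) and H2-Ob (9.02 ± 0.735), which overlapped. H2-Aa and H2-DMb2 overlapped there too. Among all 14919 tested genes Cd74 ranked 732 by mean CPM per kb in WT and 2088 in Exon2KO.

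Cd74 stood further above the chain genes in WT than in Exon2KO. Per length, Cd74 was at 4.14, 4.11 and 3.92 times the summed level of H2-Aa, H2-Ab1 and H2-Eb1 in the WT libraries numbered 2, 6 and 20. In the Exon2KO libraries of the same numbers it was at 2.70, 2.26 and 2.39 times. The mean ratios were 4.06 ± 0.122 and 2.45 ± 0.227 (SD, n = 3 each), with no overlap. Summed, the chain genes themselves had 15.0 ± 1.05 CPM per kb in WT and 10.7 ± 1.24 CPM per kb in Exon2KO. Cd74 made up 55.7% ± 2.12 of the summed level of the 10 genes in WT and 39.4% ± 2.16 in Exon2KO (SD, n = 3 each). Taken one by one, all 9 other genes had a higher level relative to Cd74 in every Exon2KO library than in any WT library. H2-Ab1 went from 9.65% to 13.8% of the Cd74 level, H2-Eb1 from 9.54% to 18.0%, and H2-DMa from 17.4% to 41.0%. All of these ratios carry the change of Cd74 itself, and their size depends on the gene lengths used, so they are a description, with no test.

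**Figure D3:**
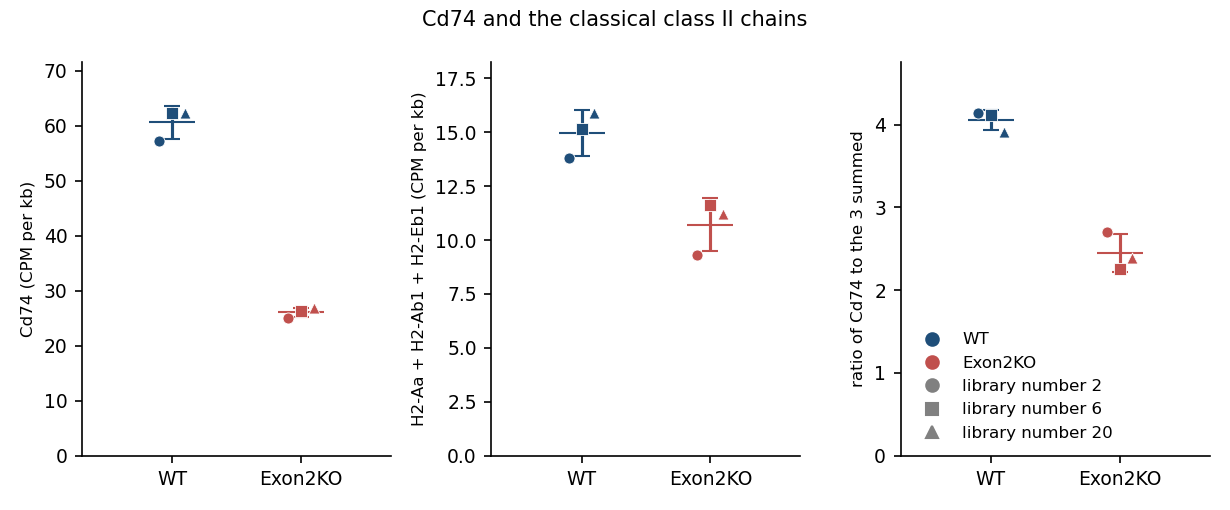
Cd74, the sum of H2-Aa, H2-Ab1 and H2-Eb1 (both in CPM per kb), and the ratio of the former to the latter, per library; crosses show the mean and SD of 3 libraries and every axis starts at 0. The ratio lies between 3.92 and 4.14 in WT and between 2.26 and 2.70 in Exon2KO.

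Within a genotype the genes did not follow one order of libraries. H2-DMa, H2-DMb2 and H2-Ob were highest in the library numbered 2 and lowest in the library numbered 20, in WT and in Exon2KO. Ciita was highest in the library numbered 20 in both genotypes. H2-Oa was highest in number 2 and lowest in number 6 in both. Cd74 was lowest in number 2 in both genotypes.

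Of the 10 genes, 8 lie within 224335 bases of chromosome 17 (34092340 to 34316674 in the deposited coordinates, build mm10), and Ciita lies on chromosome 16. The segment also holds genes of the class I pathway. Its 7 other tested genes were not called by edgeR, with log2 fold changes from -0.14 to 0.22. Tap1 and Tap2, the peptide transporter of class I loading, had -0.020 and -0.012 on the log2 scale, and Psmb8 and Psmb9, subunits of the immunoproteasome, 0.055 and -0.013. Brd2, a chromatin reader gene that overlaps H2-DMa on the opposite strand, had 65750 counts over all libraries against 4115 for H2-DMa. Its log2 difference of 0.22 had an edgeR adjusted p of 0.252, and of 0.0409 with the replicate block. Whether counting used strand is not given in the sources used here, so reads of H2-DMa are uncertain. The same holds for Ciita, with 316 counts in all, which overlaps Dexi (2332 counts) on the opposite strand.

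Other genes of the pathway were taken from fixed lists, of which 43 genes were found in the table and 38 were tested. The edgeR fit called 4 lower and 0 higher, beside 1.58% of all tested genes called lower and 2.33% in either direction. At an unadjusted p under 0.05 there were 14 of the 38, beside 12.1% of all tested genes. DESeq2 called 7 of them, where it called 3.78% of the genes it adjusted, and the replicate block called 10, where it called 9.72% of all tested genes in either direction. The regulators of class II transcription showed no gene called by edgeR among 15, with 4 at an unadjusted p under 0.05 and 1 called by DESeq2, and a median log2 fold change of 0.08. The most abundant, the coactivators Ep300 and Crebbp and the interferon regulatory factor Irf1, had 0.08, 0.13 and 0.08. Rfx5, Rfxap and Rfxank, the RFX subunits of the X box, had -0.14, 0.26 and 0.09, and Nfyb and Nfyc, subunits of NF-Y, 0.05 and -0.02. Nfya, the subunit of NF-Y that reads the Y box, gave 108, 84 and 85 counts in the WT libraries against 264, 127 and 293 in the Exon2KO libraries, without overlap. Its log2 difference of 1.38 (SE 0.34) missed the threshold, at an edgeR adjusted p of 0.0936, and passed with the replicate block (adjusted p = 0.0177) and with DESeq2 (adjusted p = 0.000581). Irf4 and Irf8, also interferon regulatory factors, had -0.34 and -0.32 and passed with the block (edgeR adjusted p of 0.00455 and 0.015).

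Endosomal processing genes gave 0 calls by edgeR among 9 tested, beside 2.33% of all tested genes, and a median of -0.13. At an unadjusted p under 0.05 there was 1, beside 12.1% of all tested genes. DESeq2 called 1, where it called 3.78% of the genes it adjusted. Ctss, the protease that trims the invariant chain in many class II cells, had 284 ± 17.6 CPM in WT and 255 ± 8.79 CPM in Exon2KO (SD, n = 3 each), and its log2 difference of -0.16 had an edgeR adjusted p of 0.486. The cathepsins Ctsb and Ctsd had log2 fold changes of -0.21 and 0.12. Sppl2a, which cleaves the last membrane stub of CD74, was at 91.3 ± 6.77 CPM and 90.6 ± 10.6 CPM (SD, n = 3 each). Ctsz, a carboxypeptidase, was the gene called by DESeq2 (adjusted p = 0.0462) and by the block (edgeR adjusted p = 0.00114), at -0.39. The ligands and partners of surface CD74 gave 0 calls among 5 by edgeR, with 2 at an unadjusted p under 0.05 and 1 by DESeq2, beside the same shares. Mif, the cytokine that binds CD74, had 102 ± 3.94 CPM and 89.1 ± 4.23 CPM (SD, n = 3 each), at an edgeR adjusted p of 0.316. Cd44, its signalling partner, had 141 ± 18.2 CPM and 101 ± 14.7 CPM (SD, n = 3 each), at an adjusted p of 0.0931 by edgeR and 0.0122 by DESeq2. Cxcr4, a chemokine receptor that also binds MIF, had a log2 fold change of 0.16. H2-Eb2, the one tested gene of the other class II loci, had 7 to 20 counts per library.

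The 4 called genes belong to class II turnover and costimulation. Cd83, whose protein shields class II molecules from ubiquitination by MARCH1, fell by 1.38 on the log2 scale, with an SE of 0.15 and an edgeR adjusted p of 0.00449. The WT libraries gave 2233, 2329 and 1950 counts and the Exon2KO libraries 835, 944 and 640, with no overlap, and the call held when any 1 library was left out (edgeR adjusted p up to 0.0324). March1 and March8, the ligase genes, had 1 to 26 counts per library. In costimulation, 3 of 6 tested genes were called lower, beside 1.58% of all tested genes. All 6 were negative, beside 48.2%, and their median was -0.85, beside 0.0084. Cd80, a ligand of CD28 and CTLA-4, was at 8.10 ± 2.34 CPM in WT and 2.00 ± 0.392 CPM in Exon2KO (SD, n = 3 each), and fell by 2.02 on the log2 scale (edgeR adjusted p = 0.00722). Icosl, the ligand of ICOS, fell by 0.84 (edgeR adjusted p = 0.0382), and Pdcd1lg2, the PD-L2 gene, by 0.86 (edgeR adjusted p = 0.0429). Cd86, the other CD28 ligand, and Cd274, the PD-L1 gene, had -0.34 and -0.33 and passed with the block (edgeR adjusted p of 0.0265 and 0.015). The block thus called 5 of the 6 lower, where it called 5.79% of all tested genes lower. Cd40, at 9 to 40 counts per library, had -1.19 without overlap (edgeR adjusted p = 0.185, and 0.0665 with the block). Without Exon2KO 2 the adjusted p of Cd80 by edgeR was 0.0557. Icosl lost its call when any single library but Exon2KO 6 was left out (edgeR adjusted p from 0.0547 to 0.171). Pdcd1lg2 lost it when any one library was left out (edgeR adjusted p from 0.0603 to 0.184), and without both libraries numbered 20 (0.0674).

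**Figure D4:**
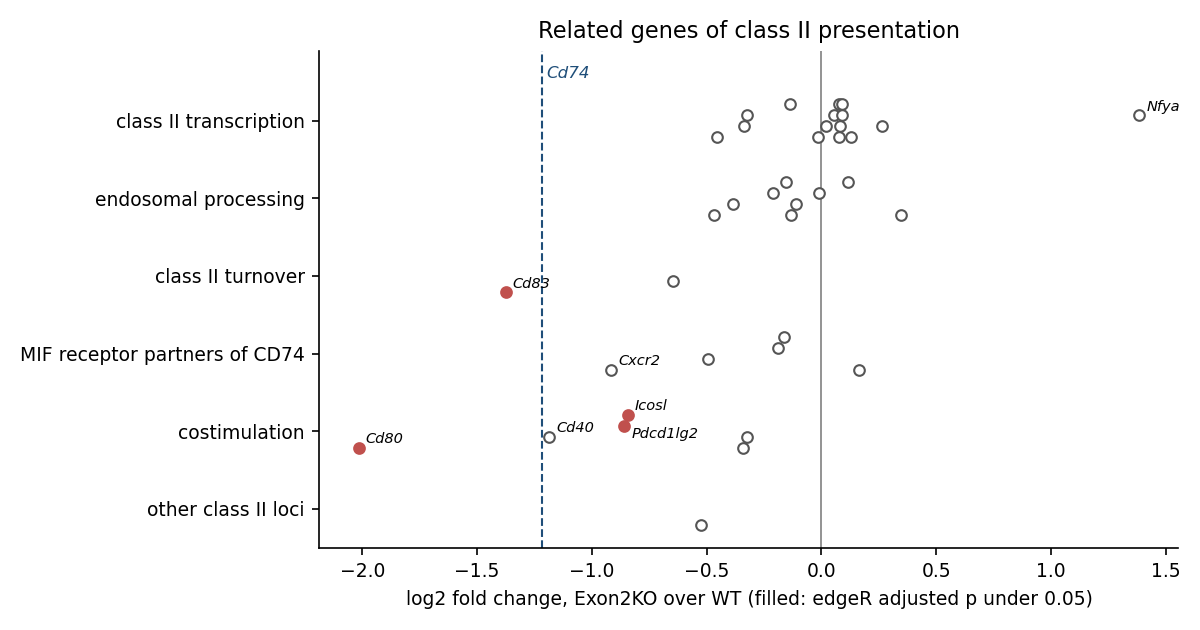
Log2 fold change of Exon2KO over WT for the 38 tested genes of the related lists, 1 point per gene; filled points have an edgeR adjusted p under 0.05 and the dashed line marks Cd74 at -1.22. Cd80, Cd83, Icosl and Pdcd1lg2 are the filled points.

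Markers of B cells, dendritic cells and macrophages, the main class II cells, are given beside the class II genes because bulk libraries mix all cells present. Markers of plasma cells, neutrophils, CD8 and NK cells, and T cells are given too. In WT some markers of the main class II cells, such as Cd79b (21.6 CPM) and Lyz2 (18.8 CPM), lay above H2-Ab1 (15.0 CPM), and others lay below it. Fewer cells of a type and less RNA per cell cannot be told apart in such libraries. The 16 B cell markers summed to 73.5 to 91.0 CPM in WT and 65.6 to 88.6 CPM in Exon2KO, with overlap and lower in Exon2KO in 2 of 3 pairs of libraries with the same number, and all had at least 3 counts in every WT library. Among 14 tested, edgeR called 0, with 2 at an unadjusted p under 0.05, beside 12.1% of all tested genes. Of these 14, 7 had a negative log2 fold change and 7 a positive one, where 48.2% of all tested genes had a negative one. DESeq2 called 2, where it called 3.78% of the genes it adjusted (Cd79b, adjusted p = 0.0358, and Pou2af1, adjusted p = 0.0165). Cd72, the highest of the list by its mean over all libraries, had 33.1 CPM in both libraries numbered 2 and 12.1 to 15.0 CPM in the others. Cd79a, a signalling chain of the B cell receptor, had 4.81 ± 0.980 CPM in WT and 5.33 ± 1.20 CPM in Exon2KO (SD, n = 3 each). Cd22 and Bank1, of the same list, had log2 fold changes of -0.42 and -0.41, with overlap, and were not called by edgeR. Cd79b, the partner of Cd79a, had a log2 fold change of -0.51 (edgeR adjusted p = 0.0828, and 0.00501 with the block). Pou2af1, a B cell coactivator gene, had 1.01 on the log2 scale (edgeR adjusted p = 0.157, and 0.0179 with the block). Without both libraries numbered 20 its edgeR adjusted p was 0.0439. Pou2af1 had 18.4 CPM in Exon2KO 6 and 6.39 CPM in WT 6, the pair whose B cell sum was higher in Exon2KO (75.6 against 73.5 CPM). The overlap of the B cell sums rests on Cd72 and Pou2af1 together, which were singled out after their values were seen. Ebf1, a B cell lineage factor, was at 0 in Exon2KO 20 alone.

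The 9 dendritic cell markers summed to 12.1 to 13.6 CPM in WT and 9.61 to 10.4 CPM in Exon2KO, without overlap and lower in 3 of 3 pairs of libraries with the same number; 8 of the 9 had at least 3 counts in each WT library and 6 to 8 in the Exon2KO libraries. Zbtb46, a transcription factor of classical dendritic cells, had 2.66 ± 0.623 and 1.28 ± 0.244 CPM (SD, n = 3 each), at an edgeR adjusted p of 0.17, and of 0.0386 with the block. Siglech, a plasmacytoid dendritic cell gene, gave 14, 14 and 19 counts in the WT libraries against 9, 6 and 2 in the Exon2KO libraries, without overlap. Its log2 difference was -1.37 (SE 0.55, edgeR adjusted p = 0.337, and 0.146 with the block). Itgax, the CD11c gene, had 2.82 ± 1.01 and 2.03 ± 0.697 CPM (SD, n = 3 each), with overlap and an edgeR adjusted p of 0.75. Fscn1, an actin bundling gene, was the highest of the list at 4.34 ± 0.483 and 4.33 ± 0.535 CPM (SD, n = 3 each). Flt3 and Xcr1, also dendritic cell genes, had 0.905 ± 0.539 and 0.763 ± 0.0923 CPM in WT, and 0.989 ± 0.291 and 0.677 ± 0.321 CPM in Exon2KO (SD, n = 3 each). The 15 macrophage and monocyte markers summed to 46.0 to 64.2 CPM in WT and 32.3 to 56.7 CPM in Exon2KO, with overlap, but were lower in Exon2KO in 3 of 3 pairs of libraries with the same number, and 11 of the 12 tested had a negative log2 fold change, beside 48.2% of all tested genes. Lyz2, the lysozyme gene of myeloid cells, was the highest of them at 18.8 ± 8.64 and 14.4 ± 7.52 CPM (SD, n = 3 each). The 4 plasma cell markers summed to 19.6 to 36.6 CPM in WT and 11.3 to 21.2 CPM in Exon2KO, also lower in 3 of 3 such pairs. None of the tested dendritic, macrophage and plasma cell markers was called by edgeR. Of these 21 genes, 4 had an unadjusted p under 0.05, beside 12.1% of all tested genes, and Derl3, a plasma cell gene, was the 1 called by DESeq2 (where it called 3.78%, adjusted p = 0.00522). With the block, Lyz2, Jchain and Derl3 passed as well as Zbtb46, at edgeR adjusted p-values of 0.0413, 0.000273 and 0.0028. That is 4 of the 21 called lower, where the block called 5.79% of all tested genes lower. Without both libraries numbered 20, Jchain was called lower, at -0.79 (edgeR adjusted p = 0.0148).

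Neutrophil markers summed to 36.7 CPM in WT 20 and 26.1 CPM in Exon2KO 20, against at most 6.18 CPM in the other libraries. Without both libraries numbered 20, Cd74 stayed at -1.22 (edgeR adjusted p = 0.000249). The 6 CD8 and NK cell markers summed to 23.8 to 26.1 CPM in WT and 25.7 to 37.3 CPM in Exon2KO, with no call by edgeR, none by DESeq2 and none at an unadjusted p under 0.05. Within pairs of libraries with the same number, Exon2KO was lower in 3 of 3 for the neutrophil sum and in 0 of 3 for the CD8 and NK cell sum. In the pair numbered 6 the higher CD8 and NK cell sum of Exon2KO rests on Eomes, at 22.5 CPM against 7.27 CPM in WT 6. The part of the cell types of these lists in the class II values was not tested. Treg identity genes were far above all of these: the 8 T cell and Treg markers summed to 3834 to 4233 CPM in WT and 3540 to 3915 CPM in Exon2KO (lower in 3 of 3 pairs), with 4 of the 8 genes negative and 4 positive in log2 fold change. Ctla4, Ikzf2 and Il2ra were called lower, by 0.85, 0.66 and 0.52 on the log2 scale (edgeR adjusted p of 0.00677, 0.024 and 0.0429), which is 3 of 8 beside 1.58% of all tested genes. Cd4, Foxp3, Cd3d and Cd3e had 0.22, 0.19, 0.05 and 0.02, and Cd3g had -0.01, none called. Ctla4 lost its call without Exon2KO 2 (edgeR adjusted p = 0.0566). Il2ra and Ikzf2 lost theirs when any single library but Exon2KO 20 was left out (edgeR adjusted p up to 0.172 and 0.122), and Il2ra also without both libraries numbered 20 (0.0561).

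**Figure D5:**
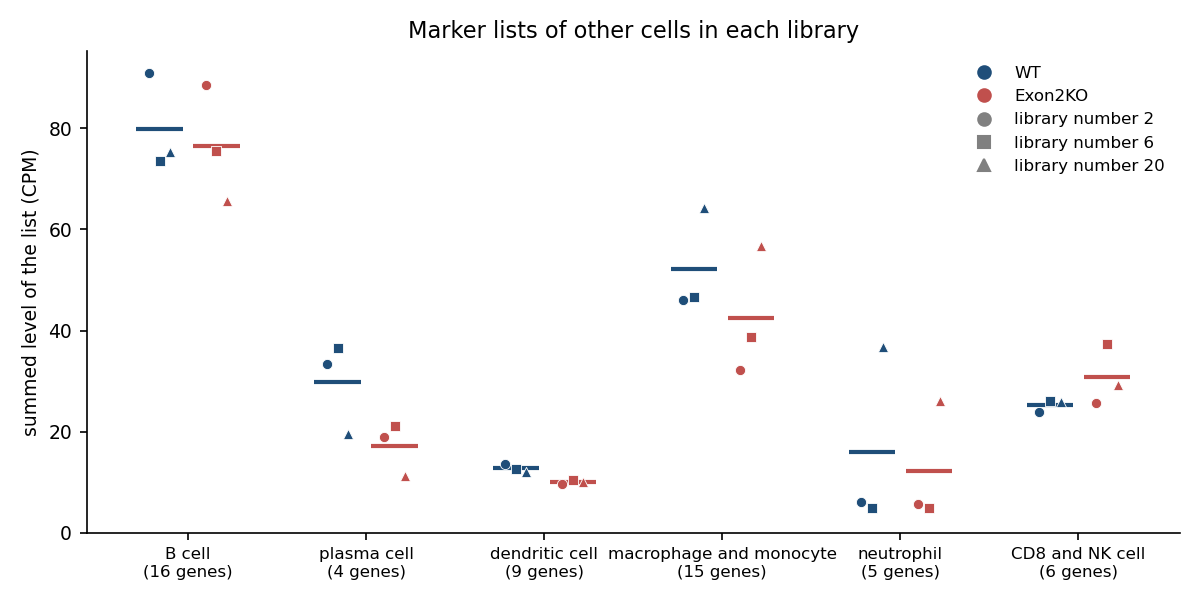
Summed level in CPM of each marker list of other cells, per library, with the mean of 3 libraries as a short line. B cell sums overlap between WT (73.5 to 91.0) and Exon2KO (65.6 to 88.6), and dendritic cell sums do not (12.1 to 13.6 against 9.61 to 10.4). The overlap of the B cell sums rests on Cd72 and Pou2af1 together.

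Genes whose level followed the class II genes most closely over the 6 libraries were taken by Pearson r among 11024 protein-coding genes of at least 1 CPM. With 6 libraries in 2 genotypes many genes reach a high value: 358 genes had r of at least 0.9 with Cd74 and 230 with the scaled mean of H2-Aa, H2-Ab1 and H2-Eb1, so r only ranks likeness. Closest to Cd74 were Lipo3, Galr3, Rhoh, Pnkd, Relb and Gprasp2 (r from 0.992 to 0.997, n = 6). Relb, an NF-kB subunit gene, had 98.8 ± 2.05 CPM in WT and 80.7 ± 1.26 CPM in Exon2KO (SD, n = 3 each). Closest to the chain genes were Arl4a, Slc48a1, Prps2, Dpt, Mpp2 and Dstn (r from 0.988 to 0.994, n = 6). The 2 sets of 6 share no gene and hold none of the B cell, plasma cell, dendritic or myeloid markers listed. Such short sets would rarely hold a marker, and markers under 1 CPM were left out, so nothing is read from this.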

How the data were processed

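Per the submitters' processing notes the tools were HISAT2 2.0.5, StringTie 1.3.3b, featureCounts 1.5.0-p3 and DESeq2 1.16.1 on build mm10; roles and strand setting are not given in the sources used here. Per the file headers, the authors deposited counts per library, gene lengths, and a log2 fold change with an adjusted p-value for Exon2KO over WT. Column names give genotype and a number (2, 6, 20) that is not in the sample titles, so columns were assigned to groups only.

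The main test was the edgeR 4.0.16 quasi-likelihood test (R 4.3.3) on the counts of all 6 libraries, with filterByExpr, TMM, robust estimation, no covariate and Benjamini-Hochberg adjustment over 14919 genes; calls are at an adjusted p under 0.05, and the SE is the absolute log2 fold change over the square root of F. CPM use the TMM-scaled library size. Levels between genes are CPM per kb of deposited gene length; the plan had named the authors' FPKM, but 1 measure was kept per library, the counts, so the 6 deposited FPKM columns were not used. Deviations of same-numbered libraries from their group means correlated across genes at 0.271, 0.369 and 0.494, so the column number was used as a replicate block. Chi-square per degree of freedom between replicates was 8.12 to 23.6, so none was a duplicate. Alternatives were other filters, scalings, DESeq2 1.42.0, limma-voom (limma 3.58.1), the block and leaving out libraries. The fit was tested on simulated data.

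Members, lists and alternatives were chosen with earlier results of these data known. Named genes were all members, called genes of the related lists or up to 3 of the highest, and the 6 most alike genes. Of the markers, some of the highest and any called ones were named. The other genes in the text were named for their role or after their values were seen. They include the RFX and NF-Y genes, Ctsz, Cd86, Cd79a, Zbtb46, Derl3 and those of the chromosome 17 segment.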

Additional observations from a re-analysis of the deposited data

How the results depend on the processing

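In place of the 348 calls, 617 genes were called with no filter on counts, 639 by DESeq2 and 1450 under the replicate block; leaving out 1 library gave 86 to 314 (86 without Exon2KO 2). The 4 calls in the related lists became 8 with no filter, 7 by DESeq2 and 10 under the replicate block, and 1 to 5 with 1 library left out. The ratio of Cd74 to the chain genes was 1.66 times as high in WT as in Exon2KO; it was 1.94 against all 9 other genes and 1.93 against those of at least 1 CPM per kb in every library. The causes were not tested. The alternative that compares FPKM with counts per length was not run. Cd74 kept its direction and its call in all 15 other fits, from -1.26 to -1.19, with adjusted p-values up to 0.005. With 1 library left out, Ciita ran from -0.37 to 0.041, H2-DMa from -0.10 to 0.10, H2-DMb1 from -0.16 to 0.0066 and H2-DMb2 from -0.058 to 0.44; H2-DMa was -0.022 without both libraries numbered 20, an alternative chosen after seeing the data, as were the added fits of the related lists. H2-Aa, H2-Ab1, H2-Eb1, H2-Oa and H2-Ob kept their negative sign in all 15, with calls only where given above. The block changed no other call of the 10 genes. Genes of under 100 counts per library (Ciita, H2-DMb1, H2-DMb2) are limited by depth.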
